A study of Mus musculus with 6 samples.

Results

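The genes of respiratory complexes II to V were compared between spleens of mice that overexpress AIMP2-DX2 and spleens of control littermates. Members were taken by symbol: Sdha to Sdhd for complex II, Cyc1 and symbols starting with Uqcr for complex III, Cycs for cytochrome c, symbols starting with Cox4 to Cox8 for complex IV, and symbols starting with Atp5 for complex V. A probe set counted only if it was annotated to 1 symbol, and a gene with several was represented by the one with the highest mean over the 6 arrays. This gave 49 of 22180 genes: 4 of complex II, 9 of complex III with cytochrome c, 17 of complex IV, 17 of complex V and 2 pseudogenes (Uqcrh-ps1 and Atp5c1-ps). Uqcr10 and Cox6c had probe sets shared with another symbol and are not members.

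The DX2 mice (CAG-rtTA; TRE DX2/+) held rtTA, an activator that needs doxycycline, driven by the broadly active CAG promoter, and a DX2 transgene that responds to it. Control mice (0; TRE DX2 /+) held the responsive transgene alone. DX2 is a shortened splice form of AIMP2, a scaffold of the multi-tRNA synthetase complex. All mice were 1 year old and had been given doxycycline in their pellets (6.25 mg/kg) since week 8 of age, and 1 array was made per spleen, 3 per group. Only the DX2 mice held rtTA, so its effect and that of DX2 cannot be told apart. Values are log2 expression values, and a difference is always DX2 minus control.

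Complexes II to V carry out the later steps of oxidative phosphorylation in the inner mitochondrial membrane. Complex II passes electrons from succinate to ubiquinone, complex III passes them to cytochrome c, complex IV reduces oxygen, and complex V, the ATP synthase, uses the resulting proton gradient to make ATP. Nuclear genes encode all of complex II and most subunits of the others, while a few core subunits of complexes III, IV and V come from mitochondrial DNA. Several complex IV subunits have a second form made mainly in testis, lung, or heart and skeletal muscle.

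The spleens also differed in cell type markers and in Xist, which may bear on the values below. Markers of spleen cell types were read on all arrays, with mean log2 values of 9.23 to 9.42 in DX2 and 8.63 to 8.83 in control for red pulp macrophages, and of 7.94 to 8.65 in DX2 and 9.71 to 10.13 in control for B cells. Xist, the RNA of the inactive X chromosome, read 4.02 to 4.29 in the DX2 spleens, against 10.89, 10.54 and 3.89 in controls 1, 2 and 3, so by transcript 2 controls were female and the 4 other spleens male. No probe set was annotated to Aimp2 alone, so the level of the transgene was not analysed here. The number of arrays limits the precision, and in bulk tissue fewer cells of a type cannot be told apart from less RNA per cell.

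Most complex II to V transcripts read slightly higher in DX2 spleens, by amounts too small to pass the test. Of the 49 members 41 had a positive difference, against 51.6% of all genes, and the median difference was 0.23 against 0.01 over all genes. For 21 members all 3 DX2 values lay above all 3 control values, where 10.7% of all genes did so, and for 0 members they lay below, against 11.2% of all genes. With the 40% dimmest genes removed, all 3 DX2 values lay above in 21 of 42 members and in 14.3% of genes. No member passed limma's test (0 of 49 at an adjusted p of 0.05, Benjamini-Hochberg over all genes, where 0.316% of all genes passed). At an unadjusted p under 0.05 there were 14 members, all higher in DX2, against 8.13% of all genes in that direction. With a term for sex there were 7, but as both female spleens are controls, that fit compares DX2 with control 3 alone. With each array centred on its median there were 23. The lowest adjusted p of a member was 0.102. Differences ran from -0.35 (Cox6a2) to 0.61 (Atp5md).

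**Figure D1:**
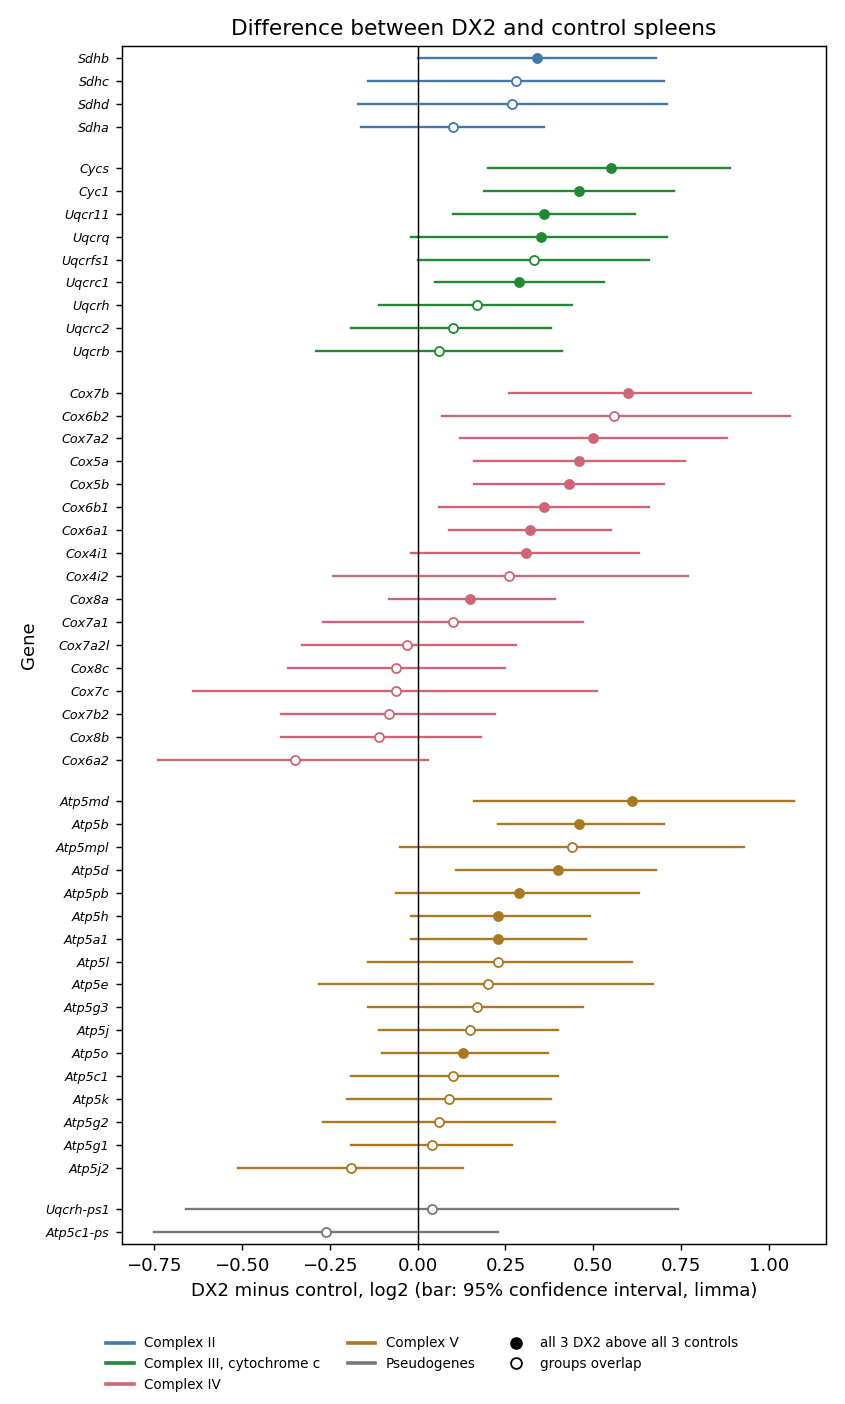
Difference between DX2 and control spleens for each of the 49 members, on the log2 scale, with 95% confidence intervals from limma (3 arrays per group). Filled points, 21 in all, mark genes whose DX2 values all exceeded the control values. The points of complexes II and III lie to the right of 0 throughout, while those of complex IV span both sides. The intervals of all complex II genes and of several complex III genes include 0.

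In the membrane-bound dehydrogenase, complex II, all 4 subunit genes had a positive difference, with a median of 0.27 (0.18 without DX2 2). Sdhb, which carries the iron-sulphur clusters, read 7.54, 7.89 and 7.41 in DX2 1, 2 and 3, against 7.17, 7.29 and 7.36 in controls 1, 2 and 3. Its groups did not overlap, and the difference was 0.34 (SE 0.15, adjusted p = 0.320), or 0.20 without DX2 2. The membrane anchors Sdhc (0.28, SE 0.18, adjusted p = 0.501) and Sdhd (0.27, SE 0.19, adjusted p = 0.539) overlapped between groups. Sdha, the flavoprotein that oxidises succinate, differed least at 0.10 (SE 0.11, adjusted p = 0.718).

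Complex III and cytochrome c had a median difference of 0.33, with all 9 genes positive and 5 not overlapping, against 10.7% of all genes. Without control 1 that median was 0.21. Cycs, the mobile cytochrome c, read 9.77, 10.01 and 9.69 in DX2 1, 2 and 3, against 9.05, 9.44 and 9.36 in controls 1, 2 and 3. Every DX2 value exceeded every control value, and the difference was 0.55 (SE 0.15, adjusted p = 0.146), a 1.46-fold change. All 5 probe sets annotated to Cycs had a positive difference (0.40 to 0.79), though 2 of them hold identical values.

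Cyc1, the cytochrome c1 that reduces cytochrome c, read 6.86, 7.01 and 6.99 in DX2 spleens, against 6.36, 6.62 and 6.51 in control spleens. The gap was wider than the spread within either group, at 0.46 (SE 0.11, adjusted p = 0.126). Among the other subunits Uqcr11 (0.36, SE 0.11, adjusted p = 0.185), the core protein Uqcrc1 (0.29, SE 0.10, adjusted p = 0.235) and Uqcrq (0.35, SE 0.16, adjusted p = 0.335) did not overlap. The Rieske iron-sulphur protein Uqcrfs1 differed by 0.33 (SE 0.14, adjusted p = 0.318) and overlapped, since control 3 read 6.21, as did DX2 1. It stood at 0.21 without control 1 and at 0.09 with a term for sex or in the male spleens, and Uqcrq at 0.20 without control 1. Uqcrh (0.17), the core protein Uqcrc2 (0.10) and Uqcrb (0.06) differed least. A further probe set that covers Uqcrb and Gm10767 differed by -0.51 (SE 0.18), so the value of Uqcrb is uncertain.

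Complex IV split between its common subunits and its tissue isoforms. Of the 10 common subunits 8 had a positive difference and the same 8 did not overlap, against 10.7% of all genes, with a median of 0.34. Of the 7 isoforms of testis, lung and muscle 3 had a positive difference, none was free of overlap, and the median was -0.06. The difference between these medians was not tested, and 4 of the 7 isoforms lay among the 40% dimmest genes. Over all 17 genes the median was 0.26.

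Cox7b, a small membrane subunit encoded on the X chromosome, read 8.41, 8.72 and 8.26 in DX2 1, 2 and 3, against 7.71, 7.96 and 7.92 in controls 1, 2 and 3. The difference of 0.60 (SE 0.15, adjusted p = 0.121) was the largest in complex IV, but the gene's other probe set, which read 4.25 to 4.83 in DX2 and 4.65 to 4.89 in control, differed by -0.29 (SE 0.17). That probe set was under the level of the 40% dimmest genes (4.94) on every array, so it says little about the gene's direction. With the mean of both probe sets Cox7b differed by 0.16. Among the 4 male spleens the brighter probe set differed by 0.55 (1 control against 3 DX2). Cox5a, one of the subunits that surround the catalytic core, read 8.74, 9.07 and 8.89 in DX2 spleens, against 8.36, 8.59 and 8.39 in control spleens. Its groups were separate, with a difference of 0.46 (SE 0.13, adjusted p = 0.157). Cox5b, which binds zinc, differed by 0.43 (SE 0.12, adjusted p = 0.145), and its second probe set, under the dim level of 4.94 on every array, also read higher in DX2.

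Cox7a2, the form of subunit VIIa found in most tissues, read 8.80, 9.15 and 8.75 in DX2 spleens, against 8.17, 8.63 and 8.41 in control spleens, a difference of 0.50 (SE 0.16, adjusted p = 0.208). Cox6b1, on the side of the membrane where cytochrome c moves, differed by 0.36 (SE 0.13, adjusted p = 0.233) and Cox6a1 by 0.32 (SE 0.10, adjusted p = 0.191). Cox4i1, the largest nuclear-encoded subunit, differed by 0.31 (SE 0.14, adjusted p = 0.341), or 0.18 without DX2 2, and Cox8a by 0.15 (SE 0.10, adjusted p = 0.509). Cox7c (-0.06, SE 0.25) and Cox7a2l (-0.03, SE 0.13), which acts in joining complexes III and IV into supercomplexes, overlapped. Cox7c varied most between controls within complex IV, at 5.11, 6.14 and 5.72.

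The testis isoforms did not follow a common pattern. Cox6b2, the testis form of subunit VIb, read 6.33, 5.50 and 6.04 in DX2 1, 2 and 3, against 5.56, 5.31 and 5.31 in controls 1, 2 and 3. DX2 1 and DX2 3 were the high arrays, while DX2 2 lay below control 1. Its difference was 0.56 (SE 0.21, adjusted p = 0.255). On the same arrays its common counterpart Cox6b1 read 8.46, 8.80 and 8.59 in DX2, highest in DX2 2, against 8.13, 8.32 and 8.32 in control.

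Cox7b2 read 1.99 to 2.24 in DX2 and 1.98 to 2.33 in control, and Cox8c 3.28 to 3.55 in DX2 and 3.25 to 3.56 in control. Both lay among the 40% dimmest genes (under 4.94), both overlapped fully, and their differences were -0.08 (SE 0.13) and -0.06 (SE 0.13). Cyct, the testis cytochrome c and no member, read 2.81 to 2.99 in DX2 and 2.76 to 3.05 in control (0.04, SE 0.12). Of 10 testis germ cell markers 9 were measured, 8 of them among the 40% dimmest genes. The exception, Odf1, read 10.90 to 11.14 in DX2 and 10.79 to 10.89 in control. The mean of these markers was 4.67 to 4.78 in DX2 and 4.65 to 4.67 in control, and their part in the Cox6b2 values was not tested.

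Isoforms of lung and muscle also overlapped. Cox4i2, the lung isoform of subunit IV, read 5.38, 6.15 and 5.38 in DX2 1, 2 and 3, against 5.39, 5.25 and 5.48 in controls, with a difference of 0.26 (SE 0.21, adjusted p = 0.604). DX2 2 alone lay above the control range, and without it the difference was 0.01. Cox6a2, the heart and muscle form of subunit VIa, had the lowest difference of all members at -0.35 (SE 0.17, adjusted p = 0.356), reading 5.54, 4.93 and 5.24 in DX2, against 5.62, 5.67 and 5.47 in control. DX2 1 lay within the control range and DX2 2 and DX2 3 below it, and without DX2 2 the difference was -0.20. The muscle isoforms Cox7a1 (0.10, SE 0.16) and Cox8b (-0.11, SE 0.12) were dim and overlapped. Of 8 muscle markers, 3 were among the 40% dimmest genes, and their mean was 4.87 to 5.04 in DX2 and 4.82 to 4.91 in control.

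**Figure D2:**
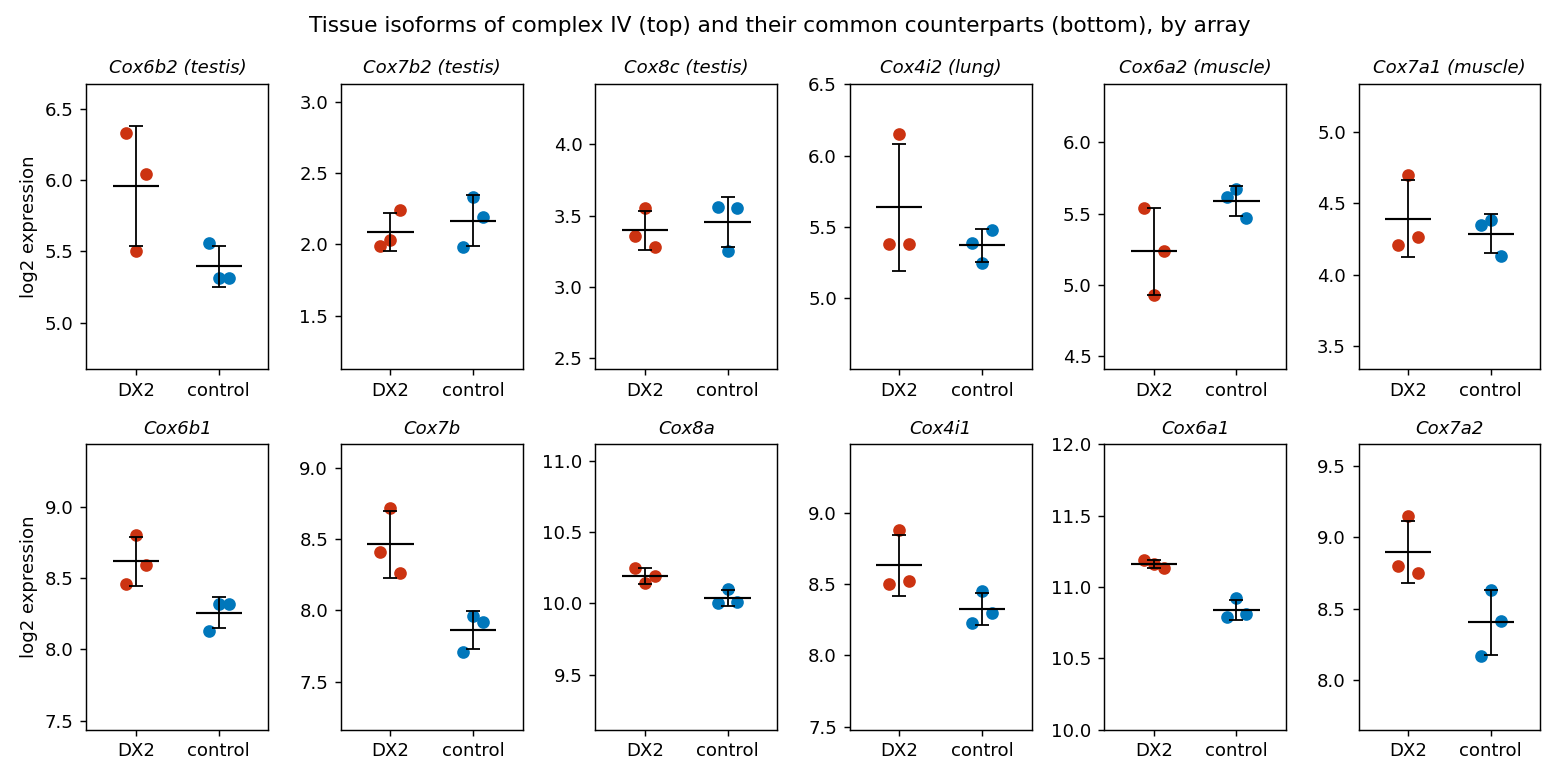
Log2 expression of 6 complex IV tissue isoforms (top row) and their common counterparts (bottom row) by array, DX2 left and control right; points are spleens (1, 2 and 3 from left to right), lines are means and bars are SD (n = 3). Each panel spans the same height on the log2 scale. In all 6 counterparts the DX2 points lie above the control points, while in all 6 isoforms the groups overlap.

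Promoters of 3 complex IV genes are shown because subunit VIb has a common and a testis form whose values ran differently over the arrays, and because Cox6a1 holds both motifs most frequent here. The windows run from 250 bases before to 50 after the RefSeq start (GRCm38.p6), printed 5' to 3' on the gene's strand. Cox6a1 lies at chr5:115348909-115349208, Cox6b1 at chr7:30626065-30626364 and Cox6b2 at chr7:4753045-4753344, all on the minus strand. Capitals mark matches on either strand to the NRF1 motif (GCGCA, any base, then GCGC) and to CCGGAAG, the core bound by ETS factors such as GABPA. Both factors are known to control many respiratory genes.
Cox6a1: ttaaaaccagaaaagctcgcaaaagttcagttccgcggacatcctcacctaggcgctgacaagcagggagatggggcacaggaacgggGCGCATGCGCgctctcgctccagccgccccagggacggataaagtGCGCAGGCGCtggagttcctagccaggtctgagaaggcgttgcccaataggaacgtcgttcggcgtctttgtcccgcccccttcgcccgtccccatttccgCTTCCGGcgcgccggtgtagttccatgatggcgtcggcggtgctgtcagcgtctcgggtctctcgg
Cox6b1: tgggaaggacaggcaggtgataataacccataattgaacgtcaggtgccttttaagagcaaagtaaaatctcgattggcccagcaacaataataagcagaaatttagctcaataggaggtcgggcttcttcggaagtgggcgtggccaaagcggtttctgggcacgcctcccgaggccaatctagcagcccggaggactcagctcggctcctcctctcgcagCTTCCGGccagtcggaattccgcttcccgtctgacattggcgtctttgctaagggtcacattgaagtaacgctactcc
Cox6b2: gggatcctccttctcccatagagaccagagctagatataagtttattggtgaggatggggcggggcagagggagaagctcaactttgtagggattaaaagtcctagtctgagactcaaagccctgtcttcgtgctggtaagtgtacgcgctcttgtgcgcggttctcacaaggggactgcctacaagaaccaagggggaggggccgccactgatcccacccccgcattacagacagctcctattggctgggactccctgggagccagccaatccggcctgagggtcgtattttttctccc

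Cox6a1 holds 2 NRF1 matches and 1 ETS match, Cox6b1 holds 1 ETS match, and Cox6b2 holds neither motif in this window. These genes do not stand for the rest of complex IV. Of the other common subunits with a window, Cox8a holds 2 ETS matches. Cox5a, Cox5b, Cox7a2, Cox7a2l, Cox7b and Cox7c hold neither motif, and nor do the isoforms Cox7a1, Cox7b2 and Cox8b. Cycs and Atp5b also lack both. Windows were found for 36 of the 49 members. The NRF1 motif matched in 10 of the 36 genes (27.8%), against 5.19% of all 27025 genes with a window, and the ETS motif in 13 (36.1%) against 9.93%. AAGATGGC, the YY1 motif, matched in 3 members (8.33%) against 3.19% of all genes, and the cyclic AMP response element TGACGTCA in 2 (5.56%) against 2.03%. Matches of different motifs may overlap. Members' windows had a median GC content of 56.7%, against 52.7% over all windows, and a match is a description of letters only.

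Complex V had a median difference of 0.20, with 16 of 17 genes positive and 7 not overlapping, against 10.7% of all genes. Without DX2 2 that median was 0.10. The order of the 4 complexes by median changed with the array left out. In the catalytic head, Atp5b, the subunit that makes ATP, read 11.02, 11.12 and 11.07 in DX2 1, 2 and 3, against 10.55, 10.67 and 10.60 in controls 1, 2 and 3. The groups were well apart, by 0.46 (SE 0.10) or 1.38-fold, and its adjusted p of 0.102 was the lowest of all members. Its adjusted p ran from 0.0493 with arrays weighted by their spread, the only alternative where it passed, to 0.68 in the 4 male spleens, while its difference stayed between 0.43 and 0.49 with 1 array left out.

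Atp5a1, which alternates with Atp5b in the head, differed by 0.23 (SE 0.11, adjusted p = 0.351) without overlap. Of the central stalk, Atp5d read 7.29, 7.57 and 7.40 in DX2 spleens, against 6.90, 7.14 and 7.03 in control spleens. Its difference was 0.40 (SE 0.12, adjusted p = 0.185), and its second probe set gave 0.54 (SE 0.17). The other stalk subunits, Atp5c1 (0.10, SE 0.13) and Atp5e (0.20, SE 0.20), overlapped.

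The membrane ring of subunit c, encoded by 3 genes with the same mature protein, differed little, at 0.17 for Atp5g3, 0.06 for Atp5g2 and 0.04 for Atp5g1. In the peripheral stalk that holds the head in place, Atp5pb (0.29, SE 0.15, but 0.15 without control 1), Atp5h (0.23, SE 0.11) and Atp5o (0.13, SE 0.10) did not overlap, and Atp5j (0.15, SE 0.11) did. Atp5h is uncertain, since its second probe set differed by -0.32 (SE 0.19).

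Among the small membrane subunits, Atp5md, also known as DAPIT, read 10.30, 10.85 and 10.34 in DX2 spleens, against 9.59, 10.03 and 10.02 in control spleens. Its difference of 0.61 (SE 0.19, adjusted p = 0.192) was the largest of all members, and the groups did not overlap. Atp5mpl differed by 0.44 (SE 0.21, adjusted p = 0.362) with overlap, since control 2 read 8.03 and DX2 3 7.98, and stood at 0.22 without control 1. Atp5l (0.23) and Atp5k (0.09) overlapped, and Atp5j2 (-0.19, SE 0.14, adjusted p = 0.545), a dim gene, had the only negative difference in complex V. The 2 pseudogenes were dim too, with differences of 0.04 (Uqcrh-ps1) and -0.26 (Atp5c1-ps).

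**Figure D3:**
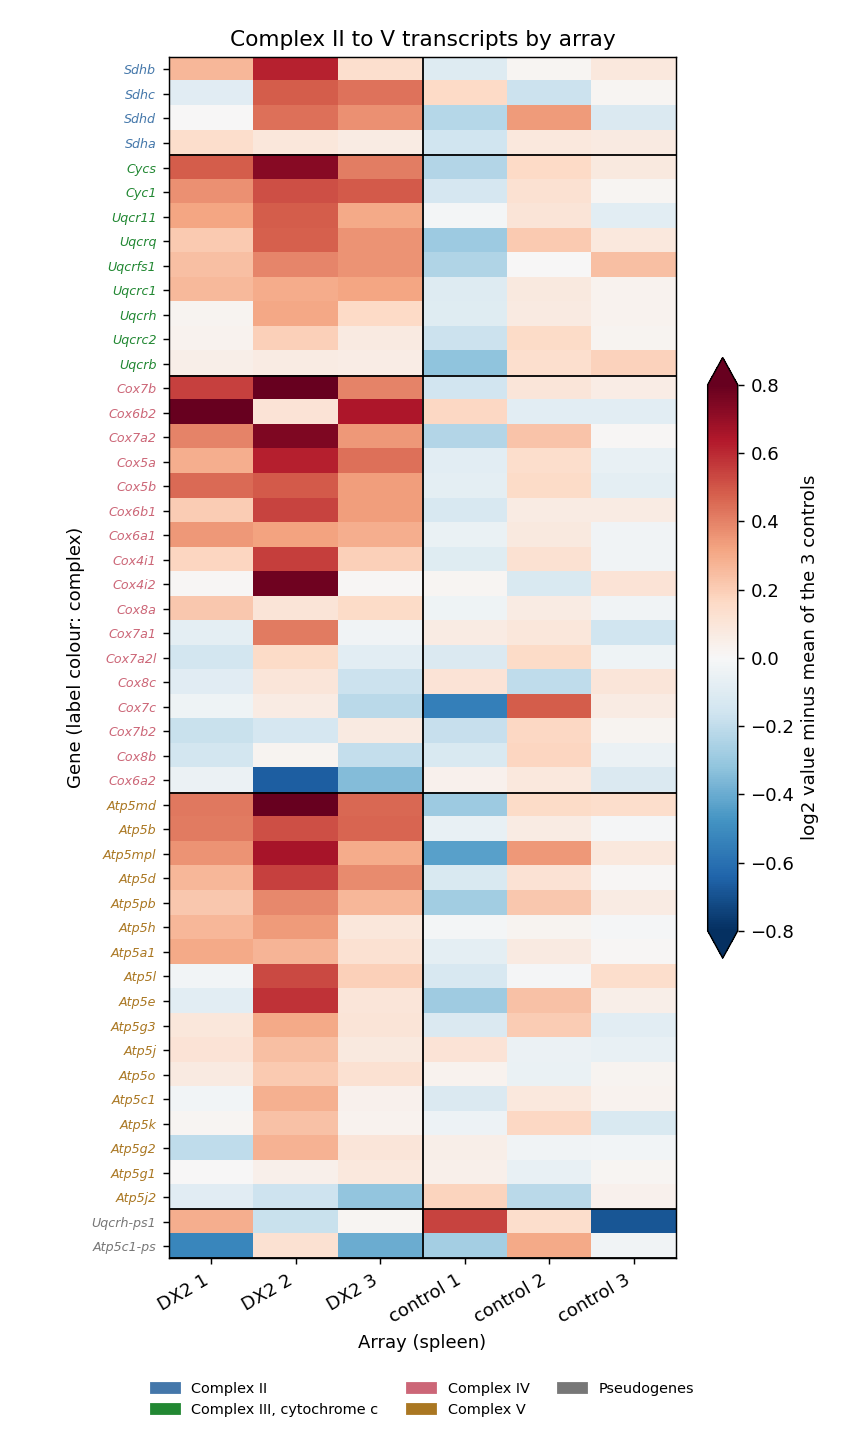
Log2 value of each member on each array minus the mean of the 3 controls (red higher, blue lower), grouped by complex, DX2 arrays left of controls. DX2 2 is the reddest column for most subunits and control 1 the bluest.

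The arrays of a group were not alike. Among the 47 subunit genes DX2 2 held the highest DX2 value in 37 and control 1 the lowest control value in 33. The median member stood 0.14, 0.32 and 0.14 above its control mean in DX2 1, 2 and 3, and at -0.11, 0.10 and 0.01 in controls 1, 2 and 3. Without DX2 2 the median difference of the 49 members was 0.18, with 39 positive and 22 not overlapping, where 17.9% of all genes did not overlap with DX2 higher. Among the 4 male spleens, 1 control against 3 DX2, the median was 0.23, with 41 positive and 30 not overlapping, against 28.9% of all genes.

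The erythroid and cell cycle markers were also higher in DX2 as lists, with another order of arrays. Erythroid markers (9 of 16 measured, all 9 with a positive difference, none called) had a mean of 9.58, 7.44 and 9.30 in DX2 1, 2 and 3, against 6.41, 8.04 and 7.95 in controls 1, 2 and 3. DX2 2, where most members read highest, thus had the lowest erythroid mean of the DX2 spleens, below controls 2 and 3. Control 1 was lowest in both. Cell cycle markers (13 of 14 measured, all 13 positive, none called) had a mean of 8.88, 8.28 and 8.78 in DX2, against 7.16, 8.02 and 7.88 in control. All 13 cell cycle markers had an unadjusted limma p under 0.05, and their median difference was 1.06. Red pulp macrophage markers (10 of 10 measured, 8 positive, 1 called) had a mean of 9.42, 9.23 and 9.23 in DX2, against 8.83, 8.63 and 8.69 in control. The groups did not overlap, with DX2 higher, in 10 cell cycle, 6 macrophage and 0 erythroid markers, against 10.7% of all genes. The part of these lists, of the lower B cell markers (8 of 9 measured, all 8 negative, 4 called) and of the T cell markers (6 of 8 measured, all 6 negative, none called; mean 6.63, 8.35 and 8.14 in DX2, against 8.12, 7.87 and 8.23 in control) in the members' differences was not tested. Nor was that of the neutrophil markers (7 of 7 measured, all 7 positive, none called), whose mean was 9.75, 7.82 and 7.79 in DX2, against 7.51, 7.88 and 8.36 in control.

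**Figure D4:**
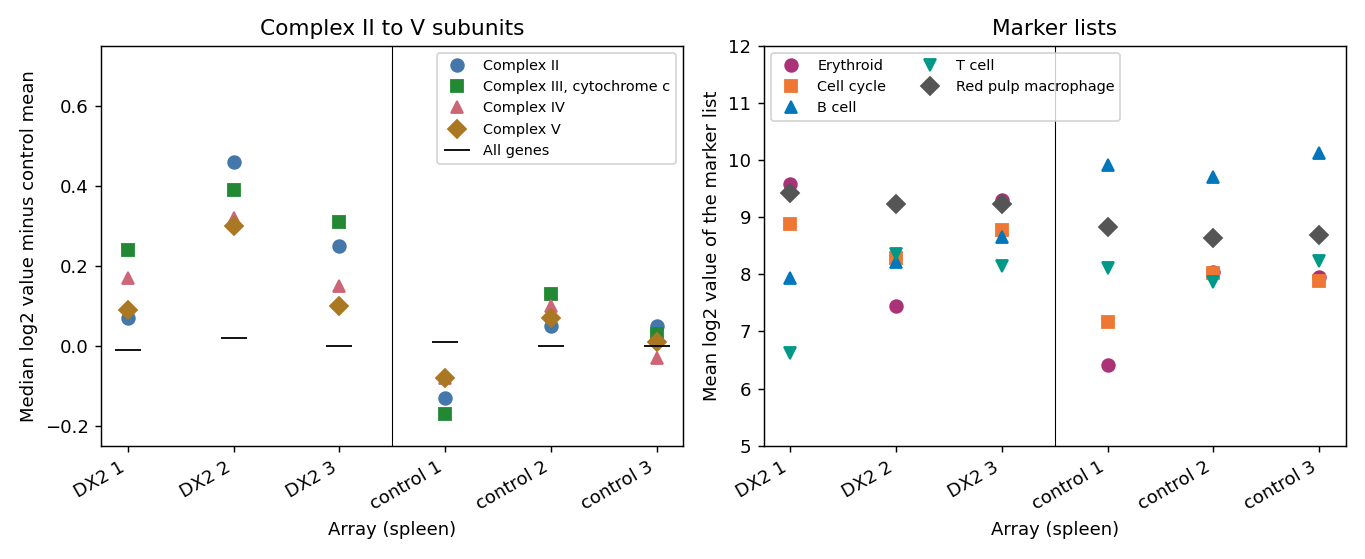
Left, median over the genes of each complex of the log2 value minus its control mean, per array, with all 22180 genes as dashes; right, mean log2 value of 5 marker lists per array (in controls 2 and 3 the erythroid and cell cycle points nearly coincide). The complexes peak in DX2 2 (0.30 to 0.46), where the erythroid list is at 7.44.

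Subunits made from mitochondrial DNA differed by less than their standard errors. COX1 and COX3, core subunits of complex IV, and CYTB of complex III were the 3 of 6 such genes with a probe set of their own. COX1 read 12.63 to 12.67 in DX2 and 12.62 to 12.67 in control. Its difference was 0.01 (SE 0.09), against -0.01 (SE 0.09) for COX3 and 0.03 (SE 0.10) for CYTB. These readings are near the top of the scale, where the highest value on any array was 13.3.

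Assembly factors, which build the complexes without being part of them, had differences in both directions. Of 44 listed symbols 39 were measured, 22 had a positive difference and the median was 0.04, with none called. The symbols not measured include earlier names of Atp5md and Atp5mpl, which are subunits and are given above as members. In 8 (20.5%) the groups did not overlap with DX2 higher, against 10.7% of all genes, and in 4 (10.3%) with DX2 lower, near the 11.2% of all genes. By complex the medians were -0.11 for complex II (4 genes), -0.01 for complex III (6), 0.04 for complex IV (23) and 0.21 for complex V (6). Whether they differ from the subunits was not tested.

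Single assembly factors went both ways. Cox16, which acts on the copper-binding subunit of complex IV, read 6.86, 6.55 and 6.90 in DX2 spleens, against 7.32, 7.22 and 7.31 in control spleens (-0.51, SE 0.13, adjusted p = 0.123). Ttc19, a complex III factor, read 6.12 to 6.27 in DX2 and 6.57 to 6.65 in control (-0.41, SE 0.10, adjusted p = 0.125), and Sdhaf3 of complex II differed by -0.45 (SE 0.14, adjusted p = 0.197). All 3 were lower in every DX2 spleen. In the other direction, Cmc2 (0.52, SE 0.13, adjusted p = 0.137) and Coa3 (0.48, SE 0.12, adjusted p = 0.139) of complex IV and Tmem70 (0.34, SE 0.12) and Tmem242 (0.31, SE 0.13) of complex V were higher in every DX2 spleen. Atpif1, which inhibits ATP hydrolysis by complex V, differed by 0.55 (SE 0.25, adjusted p = 0.336), reading 9.76, 8.90 and 9.57 in DX2 against 8.53, 9.10 and 8.95 in control. Sdhaf2 (-0.18), Sdhaf4 (0.13), Uqcc2 (0.11) and Uqcc3 (-0.17) had smaller differences.

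Regulators of mitochondrial biogenesis mostly had small differences, more of them negative than positive. Of 12 measured 3 had a positive difference, against 51.6% of all genes, the median was -0.04 and none was called. The groups did not overlap in 1 with DX2 higher and in 2 with DX2 lower, against 10.7% and 11.2% of all genes. Ppargc1a, the coactivator PGC-1alpha, read 3.77, 3.93 and 3.87 in DX2 1, 2 and 3, against 4.46, 4.38 and 4.47 in controls 1, 2 and 3. It was lower in every DX2 spleen, by -0.58 (SE 0.10, adjusted p = 0.0733), and lay among the 40% dimmest genes, so its size is uncertain. Over the alternatives its adjusted p ran from 0.0337 with weighted arrays to 0.678 in the male spleens. Yy1, a transcription factor with sites in respiratory genes, differed by 0.36 (SE 0.11, adjusted p = 0.181) and did not overlap. Gabpb1, a partner of the ETS factor GABPA, differed by -0.14 (SE 0.11) and overlapped.

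Complex I, the entry point for electrons from NADH, is given for comparison. The 34 genes were taken by symbol, and include Ndufa4 (difference 0.16), since placed in complex IV, and its relative Ndufa4l2 (-0.06). Of the 34 genes 31 had a positive difference, 10 (29.4%) did not overlap with DX2 higher, and the median was 0.22. For complexes II to V these were 41 of 49, 21 of 49 (42.9%) and 0.23, and 10.7% of all genes did not overlap in that direction. The difference between the lists was not tested.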

How the data were processed

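Total RNA of 6 spleens was extracted with Trizol, labelled with biotin and hybridised to Affymetrix arrays, per the labels. The deposited values are log2 expression values made by the authors with RMA (background correction, normalization between arrays and probe set summary), per the submitters' processing notes. Its software and annotation were not named there, and the log2 scale was inferred from the range of values (0.771 to 13.3). RMA compresses large differences, and its normalization would remove much of a shift shared by most transcripts. A small difference in scale remained. The median over all probe sets was 5.06 to 5.12 on the DX2 arrays and 5.16 to 5.2 on the control arrays. Over the genes it was 5.44 to 5.45 in DX2 and 5.42 to 5.46 in control.

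Of 41345 probe sets, 23521 had 1 gene symbol in the platform annotation, 1814 several and 16010 none. Each of 22180 genes was represented by its probe set of highest mean. All 49 members matched the RefSeq gene table (GRCm38.p6), whose promoter windows supplied the sequences.

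Groups and replicate numbers came from the titles. The labels name biological replicates. DX2 minus control was fitted with limma 3.58.1 in R 4.3.3 (lmFit, eBayes, no covariate, no filter), and p-values were adjusted across the 22180 genes (Benjamini-Hochberg) and read at 0.05. The script was tested on simulated data. Confidence intervals are 95% intervals from limma's moderated statistics. Lists are described by counts and medians, without a test.

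Genes were named by a rule: in each complex the 4 of smallest unadjusted p, all tissue isoforms with their counterparts, the extreme differences, and 3 genes of each pathway list other than complex I. Members and lists were chosen with earlier results of these data known. Genes beyond that rule (the remaining subunits) were given to account for every member. Alternatives were the replicate block, each array left out, a filter on dim genes, other eBayes settings, array weights, 2 further scalings, other probe set choices, a sex term and the male spleens. Cycs and several other subunit genes have processed copies in the genome, and which copies a probe set detects was not tested.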

Additional observations from a re-analysis of the deposited data

How the results depend on the processing

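No member passed at an adjusted p of 0.05 under any of the alternatives except array weights, where 1 did (Atp5b). The median difference of the members lay between 0.17 (array weights) and 0.33 (arrays centred on their median, which moved the median of all genes to 0.10), and was 0.18 to 0.30 with 1 array left out. Positive differences numbered 39 to 45 over all alternatives. The 39 arose without DX2 2 (of 49) and without the 40% dimmest genes (of the 42 members left). The 21 members without overlap became 19 to 30, while the share of all genes without overlap moved between 10.6% and 28.9%. The 30 and the 28.9% both belong to the 4 male spleens, where 1 control makes overlap less likely. Leaving out 1 array moved the difference of 4 of these 21 members by over 1.5 times (Sdhb, Uqcrq, Cox4i1 and Atp5pb). Members at an unadjusted p under 0.05, 14 in all, became 23 with centred arrays, 7 with the sex term and 6 in the 4 male spleens, and 10 to 17 with 1 array left out. The complex IV median of 0.26 became 0.16 with array weights or with the mean of probe sets and 0.36 with centred arrays. Genes called over all genes, 70 here, numbered 1 with the replicate block, 125 without the 40% dimmest genes, 547 with array weights, 2 with centred arrays or the sex term, 0 in the 4 male spleens, 1 when every probe set was fitted, 394 at an adjusted p of 0.1, and 1 to 370 with 1 array left out. Apart from the fits with fewer arrays or other thresholds, the cause was not tested.

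With the replicate number as a block the median difference of the members stayed at 0.23, with 18 at an unadjusted p under 0.05 and none called. The labels give no shared source for equal numbers. Same-numbered arrays correlated at -0.318, -0.142 and 0.068 in their deviations from the group means. With 3 arrays per group such values cannot show whether equal numbers share a source.

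Signs turned for 14 named genes, in 31 values, none of them called. Uqcrb stood at -0.12 with the sex term or in male spleens, and at -0.10 without control 1. Atp5h stood at -0.04 with the mean of probe sets and -0.32 with the most variable one. With centred arrays Cox7b2 stood at 0.01, Cox8c at 0.03, Cox7c at 0.03, Cox7a2l at 0.06 and COX3 at 0.08. After a second quantile normalization Cox8c stood at 0.01 and Cox7c at 0.04. Cox7a2l was 0.01 with the sex term or in male spleens, and Uqcc2 0.00 with array weights. With 1 array left out, Uqcrb ran from -0.10 to 0.15, Cox7a1 from -0.06 to 0.19, Cox8c from -0.16 to 0.00, Cox7c from -0.34 to 0.18 and Cox7a2l from -0.12 to 0.05. Atp5g2 ran from -0.05 to 0.19, Uqcrh-ps1 from -0.30 to 0.32, Sdhaf4 from -0.03 to 0.26, Uqcc2 from -0.09 to 0.23, COX3 from -0.02 to 0.00, COX1 from 0.00 to 0.02 and Cyct from -0.02 to 0.13.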

Other observations

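Cytosolic ribosomal protein genes, a list chosen after the values were seen, shared part of the order of arrays without a difference between groups. Over 60 genes the mean log2 value was 8.13, 8.29 and 8.19 in DX2 1, 2 and 3, against 8.10, 8.28 and 8.23 in controls 1, 2 and 3, so DX2 2 was again the highest DX2 spleen and control 1 the lowest control. Their median difference was -0.02, with 26 positive, 34 negative and none called (limma; 3 higher and 3 lower at an unadjusted p under 0.05).

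Probe sets shared with a second symbol also touch the complexes. The one for Uqcr10 and Gm6293 differed by 0.20 (SE 0.20), and the 2 for Cox6c and Gm6265 by 0.26 (SE 0.12) and 0.44 (SE 0.14).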
